A study of Danio rerio with 4 samples.

Results

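The libraries described here are those of zebrafish eyes at 72 hours post fertilization (72hpf), 1 from *tet2*-/-;*tet3*-/- mutants and 1 from their siblings, 2 of the 4 samples of the series. Both are of the TL strain and were made from whole eyes dissected from freshly euthanized embryos, with no treatment. The mutants carry a frameshift allele of each gene (*tet2* au59 and *tet3* au60), and the siblings were controls of wild-type appearance, whose own genotypes at both genes the labels do not give. Eyes of many embryos were pooled in each library, and no spread between animals can be had from them. RNA was captured by its poly-A tail, sequenced and summarised per gene as FPKM, fragments scaled to transcript length and to library size, on the genome build GRCz10. The table holds 31950 genes, and the 17307 that reached 1 FPKM in 1 library or both were kept. A difference always means log2(FPKM + 1) in mutant-labelled eyes minus the same in sibling-labelled eyes, a scale on which the change of genes at low FPKM is understated. With 1 library per genotype there is no replicate check, so sizes are described and no test was run.

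The Tet enzymes oxidise 5-methylcytosine in DNA to 5-hydroxymethylcytosine and further products, a step on the way to removing DNA methylation. The retina is built from multipotent progenitors. Notch signaling, which can hold differentiation back, and proneural transcription factors regulate their exit from the cell cycle. The progenitors become ganglion, amacrine, horizontal and bipolar cells, Müller glia, and the rod and cone photoreceptors (PRs). Each of these types later switches on the genes of its function, such as phototransduction, neurotransmitter release or neurotransmitter reception. In zebrafish much of this happens before 72hpf, when a laminated retina with active synapses is present outside the ciliary margin.

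Transcripts of both targeted genes were present in mutant-labelled eyes. *tet2*, on chromosome 1 from 25662646 to 25693594, had an FPKM of 34.1 in mutant-labelled and 33.6 in sibling-labelled eyes (0.02), *tet3*, on chromosome 5 from 13809699 to 13826742, had an FPKM of 37.9 in mutant-labelled and 55.9 in sibling-labelled eyes (-0.55), and *tet1*, which was not targeted and lies on chromosome 13 from 18066195 to 18165134, had an FPKM of 7.08 in mutant-labelled and 4.96 in sibling-labelled eyes (0.44). The level of *tet2* thus does not bear out the label of the mutant library, and FPKM over the whole gene does not tell frameshift from wild-type transcripts, for which reason the libraries are called mutant-labelled and sibling-labelled. The tissue label was checked against marker genes. Markers of lens (7 of 7), pigmented cells (4 of 4), rods (4 of 4), cones (7 of 7), amacrine cells (6 of 6) and progenitors (6 of 6) reached 1 FPKM in both libraries, while of 5 horizontal cell markers 2 did in mutant-labelled and 5 in sibling-labelled eyes. The 7 lens markers summed to 5157 FPKM in mutant-labelled and 11466 FPKM in sibling-labelled eyes, and the 5 Müller glia markers to 153 FPKM in mutant-labelled and 390.2 FPKM in sibling-labelled eyes. The 5 markers of epidermis summed to 2501 FPKM in mutant-labelled and 1543 FPKM in sibling-labelled eyes, the 5 of mesenchyme and cartilage to 759.6 FPKM in mutant-labelled and 404 FPKM in sibling-labelled eyes, and 4 of red blood cells to 957 FPKM in mutant-labelled and 340.5 FPKM in sibling-labelled eyes. All 5 heart muscle markers reached 1 FPKM in mutant-labelled eyes (summed 44.9 FPKM) and none did in sibling-labelled eyes (1.35 FPKM). Skeletal muscle markers summed to 184 FPKM in mutant-labelled and 34.02 FPKM in sibling-labelled eyes. How far such tissues carried over in dissection enter the values below was not tested. In bulk eyes, fewer cells of a type and less RNA per cell cannot be told apart.

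Most genes had similar levels in both libraries, and large differences were mostly toward lower values in mutant-labelled eyes. Of the 17307 genes, 15114 (87.3%) lay within 1 of 0, 632 were at or above 1 (3.65%) and 1561 at or below -1 (9.02%). At the larger size of 2, 44 genes were higher (0.254%) and 307 lower (1.77%), and at 3 there were 8 higher and 66 lower. The median over all genes was 0.02, with quartiles of -0.38 and 0.34, and the percentiles 1 and 99 were -2.38 and 1.39. At least 1 FPKM in both libraries was reached by 15506 genes. Another 887 reached it in mutant-labelled eyes only and 914 in sibling-labelled eyes only, and such genes are higher or lower by construction. Just inside the minimum lay *atoh1a*, with 1.0 FPKM in mutant-labelled and 0.263 FPKM in sibling-labelled eyes (0.66), and just outside it *ikzf1*, with 0.310 FPKM in mutant-labelled and 0.999 FPKM in sibling-labelled eyes. The highest FPKM lay between 1 and 1.1 for 294 genes and between 0.9 and 1 for 288.

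**Figure D1:**
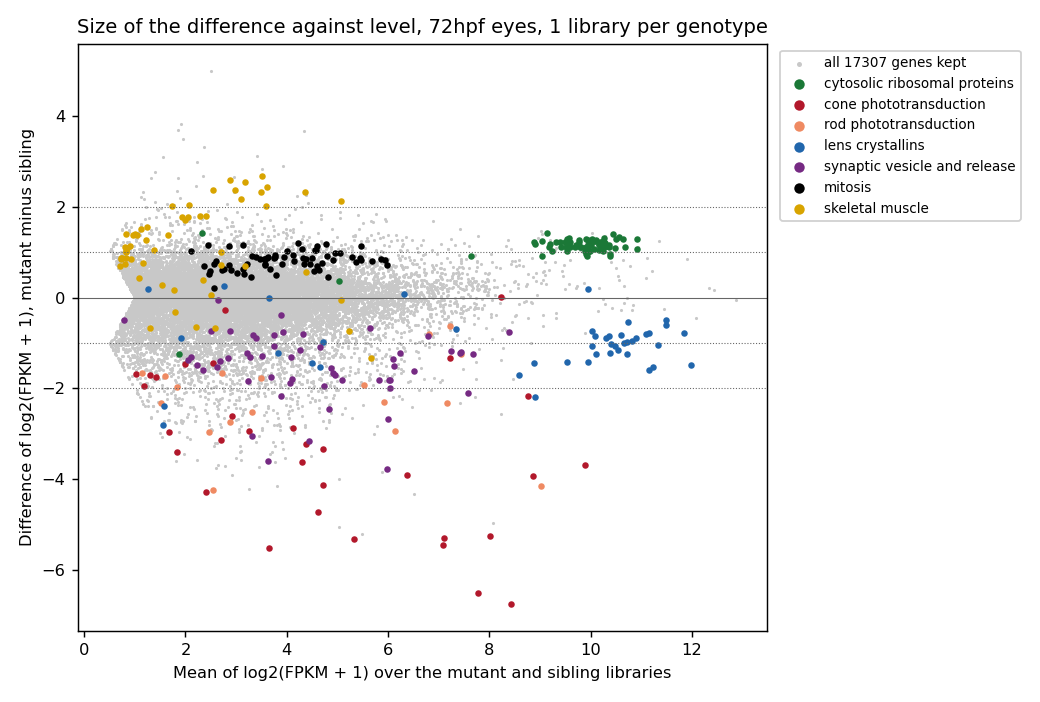
Difference of log2(FPKM + 1), mutant minus sibling, against the mean of both log2 levels, 1 point per gene (17307 genes), with 7 gene lists in colour and dotted lines at differences of 1 and 2 in size. The 79 cytosolic ribosomal protein genes lie near 1.15 and the 44 lens crystallin genes near -0.99 at the right of the plot, and the cone phototransduction genes run down to -6.76.

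The median difference lay close to 0 for genes of low and middle levels and was larger among the most abundant genes. Genes were binned by the mean of their log2 levels. The median was 0.08 below 2 FPKM (3043 genes), 0.01 between 32 and 64 FPKM (1149 genes), 0.06 between 64 and 128 FPKM (494 genes), 0.16 between 128 and 512 FPKM (307 genes) and 1.0 at 512 FPKM or more, where 87 of 173 genes (50.3%) were at or above 1. Of these 173 genes, 73 are in the list of cytosolic ribosomal proteins (median 1.15) and 29 are crystallins (-0.98). Another 13 are protein genes of the mitochondrial genome (-0.16), and 58 are in none of these lists (0.68). The 58 include ribosomal protein genes outside that list, such as *rpl37* (1.42). Among the 58, *hmgn2*, a nucleosome-binding protein gene, had an FPKM of 2863 in mutant-labelled and 1328 in sibling-labelled eyes (1.11). *tpt1*, the translationally controlled tumor protein gene, had an FPKM of 2439 in mutant-labelled and 1105 in sibling-labelled eyes (1.14). *ppiaa*, a cyclophilin gene, had an FPKM of 1998 in mutant-labelled and 773 in sibling-labelled eyes (1.37). *hsp90ab1*, a constitutive chaperone gene, had an FPKM of 1781 in mutant-labelled and 884 in sibling-labelled eyes (1.009). Of the 58, 2 were at or below -2, the opsin genes *opn1lw2* and *rho*. Genes at 1000 FPKM or more numbered 125 in mutant-labelled and 70 in sibling-labelled eyes, while the 10 highest genes held 7.82% of the summed FPKM in mutant-labelled and 9.33% in sibling-labelled eyes.

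Genes of cytosolic ribosomal proteins were higher in mutant-labelled eyes with 1 exception. Of 82 genes listed for cytosolic ribosomal proteins, 3 had symbols on more than 1 row and were left out. The other 79 all reached 1 FPKM, 78 of them were above 0 and 71 were at or above 1. Their summed FPKM was 115988 in mutant-labelled and 51759 in sibling-labelled eyes. *rps20*, a small subunit gene, had 3044 FPKM in mutant-labelled and 1236 FPKM in sibling-labelled eyes (1.3). *rps26*, another small subunit gene, was at 925 FPKM in mutant-labelled eyes and 343 FPKM in sibling-labelled eyes, a difference of 1.43. *rplp1*, which encodes an acidic protein of the large subunit stalk, had 2419.5 FPKM in mutant-labelled and 949 FPKM in sibling-labelled eyes (1.35). The exception was *rps8b*, with 1.39 FPKM in mutant-labelled and 4.66 FPKM in sibling-labelled eyes (-1.24), the low copy of a pair whose other copy, *rps8a*, had 1350.0 FPKM in mutant-labelled eyes, against 659 FPKM in sibling-labelled eyes (1.03). The translation elongation factor gene *eef1a1l1* was at 5114 FPKM in mutant-labelled eyes and 2834 FPKM in sibling-labelled eyes, a difference of 0.85. The 75 genes of mitochondrial ribosomal proteins had a median of -0.09, with none at or above 1 in size. Splicing factor genes, another group of RNA handling, had a median of 0.28 across 75 genes, 64 of them above 0, with the core snRNP gene *snrpd2* at 0.95. The lowest of that list was *rbfox1*, a splicing regulator of mature neurons, with 19.6 FPKM in mutant-labelled eyes, against 66.8 FPKM in sibling-labelled eyes (-1.72).

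**Figure D2:**
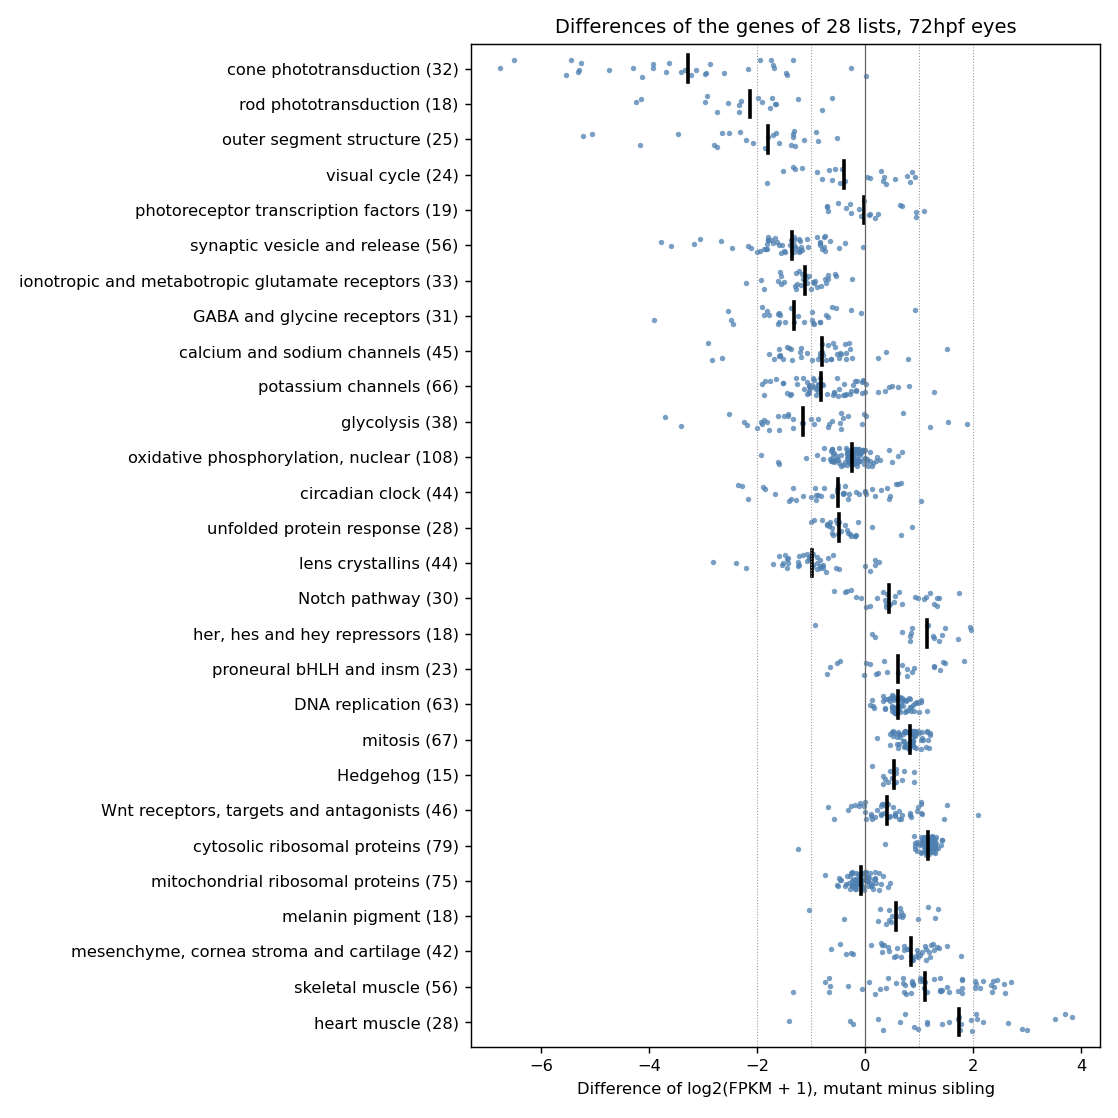
Difference of log2(FPKM + 1), mutant minus sibling, for the genes of 28 lists, 1 point per gene, with the list median as a black bar and the number of genes plotted in brackets. The medians run from -3.28 for cone phototransduction to 1.73 for heart muscle, against 0.02 over all genes.

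Across the gene lists, medians spread to both sides. Counts within lists stand against the shares over all genes kept. These were 3.65% at or above 1, 9.02% at or below -1, 0.254% at or above 2 and 1.77% at or below -2. Counts above or below 0 stand against 8989 of all 17307 genes above 0 and 8318 below it. Of 78 lists with at least 5 genes kept, 13 had a median of 0.5 or more and 16 of -0.5 or less, with 4 at or above 1 and 7 at or below -1. Every gene kept was below 0 in 4 lists (rod phototransduction, outer segment structure, synaptic vesicle and release, and glutamate receptors) and above 0 in 3 (mitosis, DNA replication and Hedgehog). Genes in none of the 82 lists, 14521 of those kept, had a median of 0.02 and held 199 of the 307 genes at or below -2 and 18 of the 44 at or above 2.

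Genes of PR function were the lowest group. The cone phototransduction list, 32 genes kept of 42 listed, had a median of -3.28 with 23 at or below -2 and summed to 1188 FPKM in mutant-labelled and 16987 FPKM in sibling-labelled eyes. The rod list had a median of -2.14 across 18 genes kept of 23, with 9 at or below -2, and summed to 591 FPKM in mutant-labelled and 3639 FPKM in sibling-labelled eyes. Sizes within both lists varied by copy and by step of the cascade. Among cone genes, *rgs9a*, which speeds the shut-off of transducin, had 5.24 FPKM in mutant-labelled and 108 FPKM in sibling-labelled eyes (-4.13). *arr3b*, a cone arrestin gene, was at 20.3 FPKM in mutant-labelled eyes and 321 FPKM in sibling-labelled eyes, a difference of -3.92. *gngt2b*, a transducin gamma gene, had 117 FPKM in mutant-labelled and 1801 FPKM in sibling-labelled eyes (-3.93). *kcnv2a*, a potassium channel subunit gene, was at 5.25 FPKM in mutant-labelled eyes and 6.52 FPKM in sibling-labelled eyes, a difference of -0.27. The last of these thus lay close in both libraries, while the other 3 cone genes were far lower in mutant-labelled eyes. Among rod genes, *cngb1a*, a subunit of the channel gated by cyclic GMP, had 0.349 FPKM in mutant-labelled and 24.4 FPKM in sibling-labelled eyes (-4.24). *rcvrna*, a recoverin gene, was at 62.9 FPKM in mutant-labelled eyes and 319.6 FPKM in sibling-labelled eyes, a difference of -2.33, while the transducin beta gene *gnb1b* had 119.7 FPKM in mutant-labelled and 184 FPKM in sibling-labelled eyes (-0.62). Genes of outer segment structure had a median of -1.80 across 25 genes. In that list *impg2a*, a proteoglycan of the matrix between PRs, was at 2.84 FPKM in mutant-labelled eyes and 41.2 FPKM in sibling-labelled eyes, a difference of -3.46. *rom1a*, a disc rim protein, had 9.97 FPKM in mutant-labelled and 72.4 FPKM in sibling-labelled eyes (-2.74). *rs1a*, the retinoschisin gene, was at 189 FPKM in mutant-labelled eyes and 660.2 FPKM in sibling-labelled eyes, a difference of -1.80.

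Genes of the visual cycle, which regenerates the chromophore partly in the retinal pigment epithelium (RPE), spread around a median of -0.40 across 24 genes, with 5 at or below -1 and none at or above 1. The RPE isomerase gene *rpe65a* had an FPKM of 78.4 in mutant-labelled and 101 in sibling-labelled eyes (-0.36). *rlbp1a*, a retinaldehyde-binding protein gene, was at -1.17 and *rdh10a*, a retinol dehydrogenase gene, at 0.93. For genes of cilium transport, on which the outer segment depends, the median was -0.11 over 35 genes. Of these, 10 were above 0 and 6 at or below -1 (17.1%, against 9.02% of all genes). The intraflagellar transport genes *ift88* and *ift52* were at -0.71 and 0.05, while 5 genes of the BBSome, a coat complex of ciliary trafficking, were at or below -1, *bbs5* (-1.77), *bbs2* (-1.70), *bbs1* (-1.58), *bbs4* (-1.14) and *bbs9* (-1.08).

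Within the lists of retinal neuron types, transcription factors had medians near 0 and other genes had lower ones. This split was made after the values had been seen. Some factor genes, such as *neurod1*, *tbx2b* and *isl1*, also stand in other lists. How far other cell types enter the values of factor genes was not tested. In PRs, 19 transcription factor genes had a median of -0.02, with none at or below -1, while 75 other genes had a median of -2.33, with 68 at or below -1. The rod and cone regulator *nr2e3* had 35.8 FPKM in mutant-labelled and 43.4 FPKM in sibling-labelled eyes (-0.27). *six7*, a regulator of cone opsins in zebrafish, was at 84.5 FPKM in mutant-labelled eyes and 103 FPKM in sibling-labelled eyes, a difference of -0.28. *thrb*, a thyroid hormone receptor of red cones, had 69.1 FPKM in mutant-labelled and 65.2 FPKM in sibling-labelled eyes (0.08). *otx5*, a homeobox gene of PRs, was at 307 FPKM in mutant-labelled eyes and 259 FPKM in sibling-labelled eyes, a difference of 0.24. These 4 factors had similar FPKM in both libraries, but others of the 19 lay further apart. *nrl* had 6.58 FPKM in mutant-labelled and 11.4 FPKM in sibling-labelled eyes (-0.71). Of the 19, 9 were above 0 and 10 below, from *neurod1* (-0.71) to *prdm1b* (1.09). In amacrine cells, 14 factor genes had a median of 0.02 and 15 others of -1.29, with 10 at or below -1. *tfap2c*, *barhl2* and *bhlhe22*, which encode amacrine cell factors, were at 0.03, 0.01 and -0.03. *slc6a1b*, a GABA transporter gene, had 10.2 FPKM in mutant-labelled and 71.3 FPKM in sibling-labelled eyes (-2.69). *gad1b*, an enzyme of GABA synthesis, was at 18.8 FPKM in mutant-labelled eyes and 71.4 FPKM in sibling-labelled eyes, a difference of -1.87. *slc32a1*, the vesicular GABA transporter gene, had 16 FPKM in mutant-labelled and 52.71 FPKM in sibling-labelled eyes (-1.66).

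In bipolar cells, 6 factor genes had a median of -0.33 and 21 other genes of -1.07, with 12 at or below -1. The bipolar homeobox gene *vsx1* had an FPKM of 398 in mutant-labelled and 424 in sibling-labelled eyes (-0.09). *cabp2a*, a calcium-binding protein gene, was at 4.43 FPKM in mutant-labelled eyes and 37.8 FPKM in sibling-labelled eyes, a difference of -2.84. *prkca*, a protein kinase C of ON bipolar cells, had 7.38 FPKM in mutant-labelled and 39.9 FPKM in sibling-labelled eyes (-2.29). *nyx*, a leucine-rich repeat protein of their dendrites, was at 3.44 FPKM in mutant-labelled eyes and 18.8 FPKM in sibling-labelled eyes, a difference of -2.16. The channel gene of the same dendrites, *trpm1a*, differed far less, with 13.3 FPKM in mutant-labelled and 16.9 FPKM in sibling-labelled eyes (-0.32). In horizontal cells, 7 factor genes had a median of -0.31, among them *prox1a* with 121 FPKM in mutant-labelled and 137 FPKM in sibling-labelled eyes (-0.18), and 6 other genes of -2.0. Of those 6, 4 were connexin genes that reached 1 FPKM in sibling-labelled eyes only, *cx52.6*, *cx52.7*, *cx52.9* and *cx55.5*, at -1.73 to -2.26. The factor gene *onecut1* was higher, with 15.5 FPKM in mutant-labelled and 7.53 FPKM in sibling-labelled eyes (0.95).

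Among the 5 types, the genes other than factors differed least in ganglion cells. Their 18 factor genes had a median of 0.05 and their 22 other genes of -0.15, with 1 and 4 at or below -1. *isl2b*, a LIM homeobox gene, had 46.5 FPKM in mutant-labelled and 36 FPKM in sibling-labelled eyes (0.36). *rbpms2b*, an RNA-binding protein gene, was at 175 FPKM in mutant-labelled eyes and 139 FPKM in sibling-labelled eyes, a difference of 0.33. *cntn2*, an axonal adhesion molecule, had 37.0 FPKM in mutant-labelled and 17.6 FPKM in sibling-labelled eyes (1.03). The lowest were *sncga*, a gamma-synuclein gene, with 3.98 FPKM in mutant-labelled and 17.6 FPKM in sibling-labelled eyes (-1.90), and *chrnb3b*, a nicotinic receptor subunit gene, at -1.48. Over all 5 types, 62 factor genes had a median of -0.04, from -1.11 (*tbr1b*) to 1.09 (*prdm1b*), with 1 at or below -1. The 139 other genes had a median of -1.66, with 99 at or below -1 and 53 at or below -2, against 9.02% and 1.77% of all genes. PR genes were 75 of the 139, and they held 68 of the 99 and 43 of the 53. Of the 139, 31 reached 1 FPKM in sibling-labelled eyes only, and the median of the rest was -1.53.

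**Figure D3:**
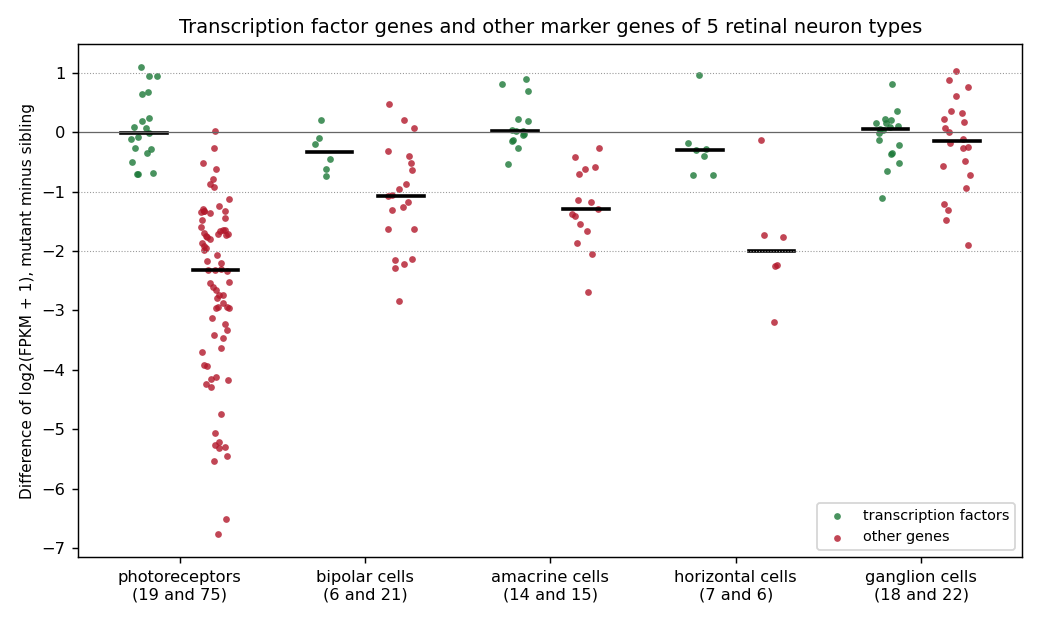
Difference of log2(FPKM + 1), mutant minus sibling, for transcription factor genes (green) and other marker genes (red) of 5 retinal neuron types, 1 point per gene, with the median as a black bar and both gene numbers in brackets. Medians of the factor genes lie between -0.33 and 0.05, and those of the other genes between -2.33 and -0.15.

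Genes of synaptic transmission were lower throughout. Of 71 genes listed for synaptic vesicles and release, 61 were matched to 1 row each, and 56 reached 1 FPKM. All 56 were below 0, 43 were at or below -1 and 8 at or below -2. The sum of the list was 1555 FPKM in mutant-labelled and 4398 FPKM in sibling-labelled eyes. The complexin gene *cplx4a*, of ribbon synapses, had an FPKM of 16 in mutant-labelled and 233 in sibling-labelled eyes (-3.79). *syt5a*, a synaptotagmin gene, had an FPKM of 2.56 in mutant-labelled and 42.2 in sibling-labelled eyes (-3.60). *slc17a7b*, a vesicular glutamate transporter gene, had an FPKM of 6.19 in mutant-labelled and 63.8 in sibling-labelled eyes (-3.17). Other genes of the list, whose median was -1.36, differed less than these, though the next one was also among the 8 at or below -2. *sypb*, a synaptophysin gene, was at 90.3 FPKM in mutant-labelled eyes and 394 FPKM in sibling-labelled eyes, a difference of -2.11, while the SNARE genes *vamp2* and *snap25b*, of membrane fusion, were lower by a smaller size. *vamp2* had 131 FPKM in mutant-labelled and 313 FPKM in sibling-labelled eyes (-1.247). *snap25b* was at 111 FPKM in mutant-labelled eyes and 260.0 FPKM in sibling-labelled eyes, a difference of -1.21. The smallest difference of the list was that of *syt4*, at -0.05. The second synaptotagmin 5 gene, *syt5b*, had 255 FPKM in mutant-labelled eyes, against 431 FPKM in sibling-labelled eyes (-0.76).

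Receptors and channels ran the same way. All 33 glutamate receptor genes kept (of 44 listed) were below 0, with a median of -1.12, and 8 of them reached 1 FPKM in sibling-labelled eyes only. *grin1a*, the NMDA receptor subunit that every such receptor needs, had 13 FPKM in mutant-labelled and 63.3 FPKM in sibling-labelled eyes (-2.2). *gria3a*, an AMPA receptor subunit gene, was at 43.6 FPKM in mutant-labelled eyes and 131 FPKM in sibling-labelled eyes, a difference of -1.57. *grm6b*, a metabotropic receptor of ON bipolar cells, had 12.4 FPKM in mutant-labelled and 29.4 FPKM in sibling-labelled eyes (-1.18). Of 31 GABA and glycine receptor genes, 30 were below 0 and 18 at or below -1 (median -1.31). *gabra6a*, a GABA receptor alpha subunit gene, was at 0.945 FPKM in mutant-labelled eyes and 28.1 FPKM in sibling-labelled eyes, a difference of -3.90. The exception was *GABRB1*, with 3.42 FPKM in mutant-labelled and 1.32 FPKM in sibling-labelled eyes (0.93). Among calcium and sodium channels (45 genes, median -0.80), the L-type channel gene *cacna1fa*, of PR and bipolar terminals, was at 6.71 FPKM in mutant-labelled eyes and 54.4 FPKM in sibling-labelled eyes, a difference of -2.85, and the accessory subunit gene *cacna2d4b* 5.59 FPKM in mutant-labelled and 40.6 FPKM in sibling-labelled eyes (-2.66). Potassium channels had a median of -0.82 across 66 genes, but 29 of these reached 1 FPKM in sibling-labelled eyes only, and the median of those at 1 FPKM or more in both was -0.36. The neuronal gap junction gene *cx35b* had an FPKM of 2.63 in mutant-labelled and 20.3 in sibling-labelled eyes (-2.55). In all, 248 genes of synapses, receptors, channels and connexins had a median of -1.04. Of these 248 genes 128 were at or below -1, against 9.02% of all genes. The 128 made up 8.20% of the 1561 genes of that size.

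Lists of neuronal guidance genes had medians near 0. Medians were 0.07 for semaphorins and plexins (42 genes), 0.16 for ephrins and Eph receptors (32 genes), 0.17 for slits, netrins and their receptors (27 genes) and -0.21 for protocadherins (54 genes), while cadherins had a median of -0.66 (20 genes). *robo3*, an axon guidance receptor gene, had 40.5 FPKM in mutant-labelled and 26.4 FPKM in sibling-labelled eyes (0.60). *draxin*, a secreted guidance molecule, was at 24.4 FPKM in mutant-labelled eyes and 10.6 FPKM in sibling-labelled eyes, a difference of 1.13. Whether these lists differ from those of the synapse was not tested.

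Genes of glycolysis were lower, and those of oxidative phosphorylation differed less. Of 43 genes listed for glycolysis 38 were kept, with a median of -1.16, 20 at or below -1, 6 at or below -2 and 3 at or above 1, and the sum was 1234 FPKM in mutant-labelled and 2699 FPKM in sibling-labelled eyes. Lower values were found from glucose uptake to the last steps of the pathway. *slc2a1a*, a glucose transporter gene, had 0.737 FPKM in mutant-labelled and 21.6 FPKM in sibling-labelled eyes (-3.70). *hk1*, a hexokinase gene, was at 7.70 FPKM in mutant-labelled eyes and 38.7 FPKM in sibling-labelled eyes, a difference of -2.19. *gpia*, a phosphoglucose isomerase gene, had 25.8 FPKM in mutant-labelled and 101 FPKM in sibling-labelled eyes (-1.92). All 3 were lower in mutant-labelled eyes, the transporter most. Further down the pathway *aldocb*, an aldolase gene, was at 34.5 FPKM in mutant-labelled eyes and 167 FPKM in sibling-labelled eyes, a difference of -2.24. *pgk1*, the phosphoglycerate kinase gene, had 35.8 FPKM in mutant-labelled and 104 FPKM in sibling-labelled eyes (-1.51). *eno1a*, an enolase gene, was at 64.1 FPKM in mutant-labelled eyes and 222 FPKM in sibling-labelled eyes, a difference of -1.77. These genes were lower as well. At its end *pkma*, a pyruvate kinase gene, had 60.4 FPKM in mutant-labelled and 155 FPKM in sibling-labelled eyes (-1.34). *slc16a3*, an exporter of lactate, was at 9.39 FPKM in mutant-labelled eyes and 58.8 FPKM in sibling-labelled eyes, a difference of -2.53. Copies of the same step could differ. *gapdh*, a glyceraldehyde phosphate dehydrogenase gene, had 18.9 FPKM in mutant-labelled eyes, against 5.89 FPKM in sibling-labelled eyes (1.53). The much more abundant *gapdhs* had 318 FPKM in mutant-labelled eyes, against 638 FPKM in sibling-labelled eyes (-1.0). The 108 nuclear genes of oxidative phosphorylation had a median of -0.24, 94 below 0 but only 4 at or below -1, with *atp5b*, a subunit of the ATP synthase, at 427 FPKM in mutant-labelled and 655 FPKM in sibling-labelled eyes (-0.62). The 13 protein genes of the mitochondrial genome had a median of -0.16, and *mt-co1*, a cytochrome oxidase subunit and the highest gene of both libraries, had 7281 FPKM in mutant-labelled eyes, against 7558 FPKM in sibling-labelled eyes (-0.05).

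**Figure D4:**
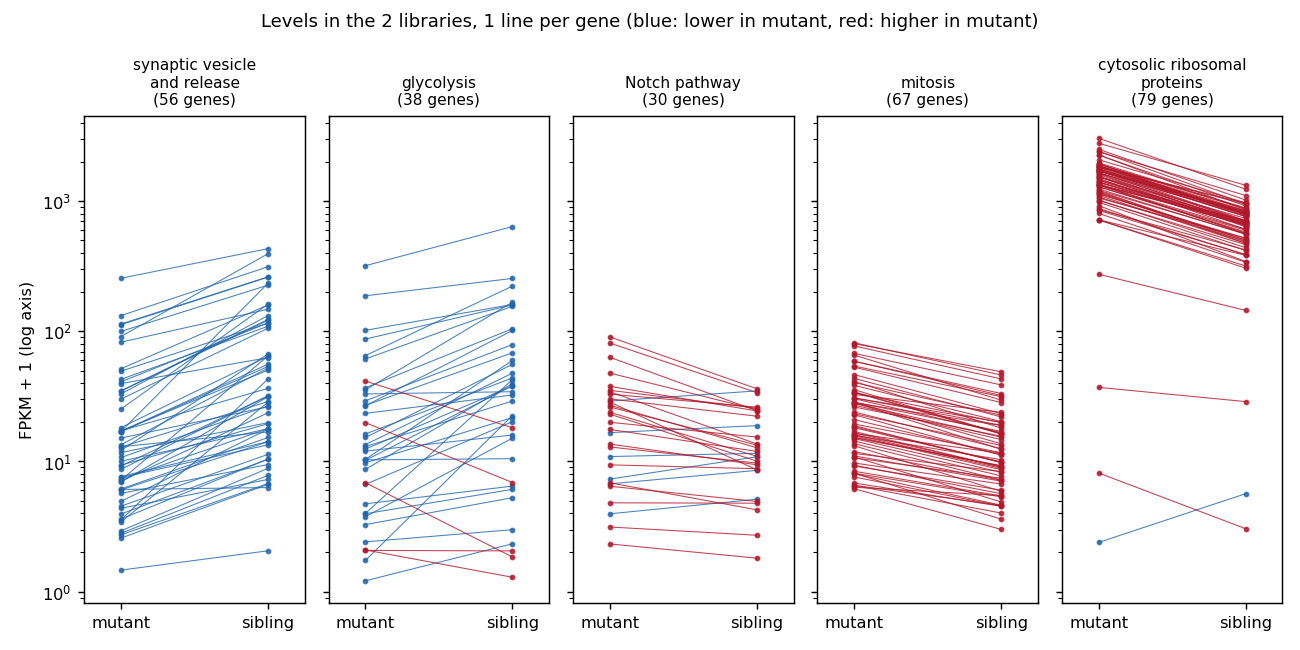
FPKM + 1 on a log axis in the mutant (left) and sibling (right) library for the genes of 5 lists, 1 line per gene, blue where lower and red where higher in mutant. All 56 genes of synaptic vesicles and release fall below their sibling value, 33 of 38 glycolysis genes do so, and 24 of 30 Notch pathway genes, 67 of 67 mitosis genes and 78 of 79 cytosolic ribosomal protein genes lie above it.

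Membrane transporters as a family shifted less but held many of the lowest genes. Of 309 solute carrier genes kept of 432 listed, the median was -0.19. At or below -1 were 63 (20.4%, against 9.02% of all genes), and at or above 1 were 7 (2.27%, against 3.65%). The 23 at or below -2 made up 7.49% of the 307 genes of that size. The lowest was *slc25a3a*, a mitochondrial phosphate carrier gene, with 7.11 FPKM in mutant-labelled eyes, against 129 FPKM in sibling-labelled eyes (-4.01). *slc24a2*, a sodium, calcium and potassium exchanger of cones, had 4.58 FPKM in mutant-labelled and 67.8 FPKM in sibling-labelled eyes (-3.62). *slc12a5b*, a potassium and chloride cotransporter of neurons, was at 1.59 FPKM in mutant-labelled eyes and 26.5 FPKM in sibling-labelled eyes, a difference of -3.41. At the other end *slc45a2*, a melanosome transporter gene, had 29.8 FPKM in mutant-labelled and 11.6 FPKM in sibling-labelled eyes (1.29).

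Müller glia genes divided. Of 18 genes kept, 6 were at or below -1 and 1 at or above 1 (median -0.45). A glutamine synthetase gene, *glulb*, had 153 FPKM in mutant-labelled eyes, against 113 FPKM in sibling-labelled eyes (0.43). The glutamate transporter gene *slc1a2a* had 3.78 FPKM in mutant-labelled eyes, against 47.0 FPKM in sibling-labelled eyes (-3.33). Its copy *slc1a2b* had 43.7 FPKM in mutant-labelled eyes, against 136 FPKM in sibling-labelled eyes (-1.61). *glula*, another glutamine synthetase gene, had 30.9 FPKM in mutant-labelled eyes, against 95 FPKM in sibling-labelled eyes (-1.59). Other members of the list were higher. *vim*, the vimentin gene, had 25.3 FPKM in mutant-labelled eyes, against 10.4 FPKM in sibling-labelled eyes (1.2). *sox9b*, a Sox factor gene, had 14.5 FPKM in mutant-labelled eyes, against 6.91 FPKM in sibling-labelled eyes (0.97). *fabp7a*, a fatty acid-binding protein gene, had 1726 FPKM in mutant-labelled eyes, against 1313 FPKM in sibling-labelled eyes (0.39).

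Genes of neurogenesis were higher in mutant-labelled eyes. The proneural list, 23 genes kept, had a median of 0.61, with 18 above 0, 6 at or above 1 and none at or below -1. *atoh7*, which is needed for ganglion cells, was at 81.2 FPKM in mutant-labelled eyes and 30.5 FPKM in sibling-labelled eyes, a difference of 1.38. *neurog1*, a proneural factor gene, had 13 FPKM in mutant-labelled and 4.02 FPKM in sibling-labelled eyes (1.48). *olig2*, a bHLH factor gene, was at 47.1 FPKM in mutant-labelled eyes and 12.6 FPKM in sibling-labelled eyes, a difference of 1.83. *sox11a*, a Sox factor of new neurons, had 111 FPKM in mutant-labelled and 45.3 FPKM in sibling-labelled eyes (1.28). All 4 were higher in mutant-labelled eyes. The lowest was *neurod1*, which PRs also express, at -0.71. Progenitor and eye field genes as a whole lay near 0 (33 genes, median 0.10, 3 at or above 1). *foxn4*, which favours horizontal and amacrine fates, had 74.5 FPKM in mutant-labelled and 30.6 FPKM in sibling-labelled eyes (1.26). *rx1*, an eye field gene, was at 44.5 FPKM in mutant-labelled eyes and 81.7 FPKM in sibling-labelled eyes, a difference of -0.86.

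The Notch pathway and its target repressors were higher with few exceptions. Of 30 pathway genes kept of 34 listed, 24 were above 0, 8 at or above 1 and none at or below -1, with a median of 0.45. Among ligands, *dla* had 33.4 FPKM in mutant-labelled and 12.6 FPKM in sibling-labelled eyes (1.33). *dlc* was at 62.2 FPKM in mutant-labelled eyes and 23.5 FPKM in sibling-labelled eyes, a difference of 1.37. *dld* had 27.6 FPKM in mutant-labelled and 7.62 FPKM in sibling-labelled eyes (1.73), while the Jagged ligand genes *jag1b* and *jag2b* lay at 0.01 and -0.08. Of the receptors, *notch1a* was at 89.6 FPKM in mutant-labelled eyes and 35.2 FPKM in sibling-labelled eyes, a difference of 1.32. *notch3* had 46.8 FPKM in mutant-labelled and 24.0 FPKM in sibling-labelled eyes (0.93). These 3 Delta and 2 Notch genes were thus higher in mutant-labelled eyes. *lfng*, a sugar transferase that tunes the response of Notch receptors, was at 80.3 FPKM in mutant-labelled eyes and 32.8 FPKM in sibling-labelled eyes, a difference of 1.27. *rbpjb*, the DNA-binding partner of activated Notch, had 22.9 FPKM in mutant-labelled and 9.96 FPKM in sibling-labelled eyes (1.12). The lowest was the ubiquitin ligase gene *MIB2*, at -0.57. Of 18 *her*, *hes* and *hey* genes, which encode repressors, many of them switched on by Notch, 17 were above 0 and 10 at or above 1, with a median of 1.15. *her4.4* was at 34.5 FPKM in mutant-labelled eyes and 8.11 FPKM in sibling-labelled eyes, a difference of 1.96. *her6* had 30.8 FPKM in mutant-labelled and 13.2 FPKM in sibling-labelled eyes (1.16), while *her2* was lower, with 7.12 FPKM in mutant-labelled and 14.4 FPKM in sibling-labelled eyes (-0.93). Reads can fall on more than one of the near-identical *her4* genes, so the value of each is uncertain.

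Genes of DNA replication and mitosis were higher in every gene kept, most of them by less than 1. All 63 DNA replication genes and all 67 mitosis genes were above 0, with medians of 0.61 and 0.83, 3 and 12 at or above 1 and none at or below -1. *pcna*, the sliding clamp of replication, was at 249 FPKM in mutant-labelled eyes and 138 FPKM in sibling-labelled eyes, a difference of 0.84. *mcm7*, a helicase subunit gene, had 148 FPKM in mutant-labelled and 74.8 FPKM in sibling-labelled eyes (0.97). *mki67*, a marker of cycling cells, was at 79.4 FPKM in mutant-labelled eyes and 47.9 FPKM in sibling-labelled eyes, a difference of 0.72. The highest were *gins2*, a replication gene, at 1.14 and *ccnb3*, a mitotic cyclin gene, at 1.2, and the lowest *tipin*, a replication fork gene, at 0.09. Genes that hold the cycle back went both ways. The Cdk inhibitor gene *cdkn1ca* had 28.5 FPKM in mutant-labelled and 9.32 FPKM in sibling-labelled eyes (1.51). *cdkn2d* was at 9.16 FPKM in mutant-labelled eyes and 3.67 FPKM in sibling-labelled eyes, a difference of 1.12. *cdkn1ba* had 9.69 FPKM in mutant-labelled and 16.4 FPKM in sibling-labelled eyes (-0.70). *cdkn1a*, a further member, was at 4.06 FPKM in mutant-labelled eyes and 6.47 FPKM in sibling-labelled eyes, a difference of -0.56. Of these 4 inhibitors, *cdkn1ca* and *cdkn2d* were thus higher and the others lower in mutant-labelled eyes. *ccnd1*, the cyclin that drives entry into the cycle, had 133 FPKM in mutant-labelled and 73.3 FPKM in sibling-labelled eyes (0.85). Genes of cell death and of the DNA damage response had a median of 0.13 across 36 genes. In that list *sesn1*, a stress response gene, had 102 FPKM in mutant-labelled and 42.5 FPKM in sibling-labelled eyes (1.248). *casp3a*, an executioner caspase gene, had 92.2 FPKM in mutant-labelled and 67.3 FPKM in sibling-labelled eyes (0.45).

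The medians of other signaling lists lay between -0.03 and 0.54. Wnt ligands, of which 24 of 25 listed genes were matched to 1 row each and 9 reached 1 FPKM, had a median of 0.05. *wnt9b* was at 5.24 FPKM in mutant-labelled eyes and 6.62 FPKM in sibling-labelled eyes, a difference of -0.29. *wnt5b* had 9.03 FPKM in mutant-labelled and 3.64 FPKM in sibling-labelled eyes (1.11). Receptors, targets and antagonists of Wnt had a median of 0.40 across 46 genes, with 7 at or above 1 and none at or below -1. The antagonist *sfrp2* was at 43.2 FPKM in mutant-labelled eyes and 9.40 FPKM in sibling-labelled eyes, a difference of 2.09. *sfrp1a*, another antagonist, had 24.3 FPKM in mutant-labelled and 8.23 FPKM in sibling-labelled eyes (1.45). *fzd5*, a Wnt receptor gene, was at 32.6 FPKM in mutant-labelled eyes and 15.4 FPKM in sibling-labelled eyes, a difference of 1.03, and the targets *lef1* and *axin2* were close to 0. *lef1* had 4.46 FPKM in mutant-labelled and 4.84 FPKM in sibling-labelled eyes (-0.10). *axin2* was at 5.45 FPKM in mutant-labelled eyes and 4.94 FPKM in sibling-labelled eyes, a difference of 0.12. All 15 Hedgehog genes kept were above 0 with none at or above 1 (median 0.53). *smo*, the signal transducer of the pathway, had 17.0 FPKM in mutant-labelled and 8.59 FPKM in sibling-labelled eyes (0.91). Bmp and Tgf-beta genes had a median of 0.54 across 35 genes, with *tgfbi*, a matrix protein gene that Tgf-beta induces, at 110.4 FPKM in mutant-labelled and 32.4 FPKM in sibling-labelled eyes (1.74). Fgf genes (32) had a median of 0.08, Jak/Stat and Socs genes (21) of -0.03 and retinoic acid genes (20) of 0.19. Of the last, *aldh1a3*, an enzyme of retinoic acid synthesis in the ventral eye, had 15.6 FPKM in mutant-labelled and 5.01 FPKM in sibling-labelled eyes (1.47).

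Lens genes were lower by about 1 on the log2 scale. Of 57 crystallin genes listed, 44 were kept, with 40 below 0, 21 at or below -1 and a median of -0.99, and their sum was 38357 FPKM in mutant-labelled and 76915 FPKM in sibling-labelled eyes. *crybb1*, the most abundant in sibling-labelled eyes, was at 2412 FPKM in mutant-labelled eyes and 6747 FPKM in sibling-labelled eyes, a difference of -1.48. *cryba4*, a beta-crystallin gene, had 2802 FPKM in mutant-labelled and 4838 FPKM in sibling-labelled eyes (-0.79). *cryaa*, the alpha A chaperone, was at 126 FPKM in mutant-labelled eyes and 204 FPKM in sibling-labelled eyes, a difference of -0.69. The many *crygm2d* copies are near-identical and can share reads. Other lens genes had a median of -0.66 across 22 genes. *grifin*, a lens galectin gene, had 5.65 FPKM in mutant-labelled and 74.1 FPKM in sibling-labelled eyes (-3.50). *bfsp2*, a beaded filament gene of lens fibers, was at 150.1 FPKM in mutant-labelled eyes and 329 FPKM in sibling-labelled eyes, a difference of -1.13. *foxe3*, a factor gene of the lens epithelium, had 5.63 FPKM in mutant-labelled and 4.92 FPKM in sibling-labelled eyes (0.16). *lim2.3*, a fiber membrane protein gene, was at 282 FPKM in mutant-labelled eyes and 306 FPKM in sibling-labelled eyes, a difference of -0.12. Fiber genes thus differed among themselves, and the epithelial factor was level.

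Pigment, skin, connective tissue, blood and muscle genes were higher on balance. Melanin genes had a median of 0.57 across 18 genes (16 above 0), with *dct*, an enzyme of melanin synthesis, at 78.8 FPKM in mutant-labelled and 50.4 FPKM in sibling-labelled eyes (0.63), and genes of iridophores and xanthophores also had 16 of 18 above 0 (median 0.58). Keratins spread widely. *krt92* had 29.7 FPKM in mutant-labelled eyes, against 3.29 FPKM in sibling-labelled eyes (2.84). *krt4*, a keratin of the outer skin layer, had 1761 FPKM in mutant-labelled eyes, against 1021 FPKM in sibling-labelled eyes (0.79). *krt5*, of the basal layer, had 250.4 FPKM in mutant-labelled eyes, against 240.3 FPKM in sibling-labelled eyes (0.06). *krt222*, by contrast, had 9.96 FPKM in mutant-labelled eyes, against 41.8 FPKM in sibling-labelled eyes (-1.97). Of the 18 keratins kept, 7 were below 0. Of 42 genes of mesenchyme, cornea stroma and cartilage 14 were at or above 1 and none at or below -1 (median 0.86). *col2a1a*, the main collagen of cartilage, had 274 FPKM in mutant-labelled and 118 FPKM in sibling-labelled eyes (1.21). *foxc1b*, of the mesenchyme around the eye, was at 13.2 FPKM in mutant-labelled eyes and 5.15 FPKM in sibling-labelled eyes, a difference of 1.21. *twist1b*, a factor gene of mesenchyme, had 7.32 FPKM in mutant-labelled and 1.43 FPKM in sibling-labelled eyes (1.77). *kera*, the keratocan gene of the cornea, was at 22.6 FPKM in mutant-labelled eyes and 17.4 FPKM in sibling-labelled eyes, a difference of 0.36. For red blood cells the median was 0.45 across 23 genes, with 8 at or above 1, *hbae3*, an embryonic globin gene, at 857 FPKM in mutant-labelled and 325 FPKM in sibling-labelled eyes (1.40). *ank1b*, an ankyrin gene of the membrane skeleton, had 1.83 FPKM in mutant-labelled and 7.01 FPKM in sibling-labelled eyes (-1.5). Heart muscle genes had a median of 1.73 across 28 genes, of which 19 reached 1 FPKM in mutant-labelled eyes only, and skeletal muscle genes of 1.1 across 56 genes, of which 24 did. Across genes at 1 FPKM or more in both libraries these medians were 1.03 for heart and 1.78 for skeletal muscle. The red blood cell, heart and skeletal muscle lists, 106 of the 17307 genes kept, held 23 of the 44 genes at or above 2 (52.3%). They held none at or below -2. Of the 44, 20 reached 1 FPKM in mutant-labelled eyes only and are thus higher by construction. Endothelial genes (26, median 0.10) and leukocyte genes (22, median 0.19) lay near all genes.

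Genes of rhythm and stress responses were lower in part. Of 44 circadian clock genes (median -0.50), 12 were at or below -1 (27.3%, against 9.02% of all genes). At or above 1 was 1 gene (2.27%, against 3.65%). The clock repressor gene *nr1d1* was at 9.69 FPKM in mutant-labelled eyes and 50.9 FPKM in sibling-labelled eyes, a difference of -2.28. *bhlhe40*, another repressor gene, had 13.4 FPKM in mutant-labelled and 52.2 FPKM in sibling-labelled eyes (-1.88). *dbpa*, an output factor gene, was at 12.8 FPKM in mutant-labelled eyes and 35.8 FPKM in sibling-labelled eyes, a difference of -1.41. These 3 genes were lower in mutant-labelled eyes, and the next ones were not. *per1b* had 37.3 FPKM in mutant-labelled and 24.9 FPKM in sibling-labelled eyes (0.57). *cry1a* was at 36 FPKM in mutant-labelled eyes and 31.5 FPKM in sibling-labelled eyes, a difference of 0.19. The sources used here do not give the hour of each dissection. Genes of the unfolded protein response had 25 of 28 below 0 (median -0.49), with *hspa5*, the main chaperone of the endoplasmic reticulum, at 61.2 FPKM in mutant-labelled and 118 FPKM in sibling-labelled eyes (-0.94). *xbp1*, a factor of this response, had 85.7 FPKM in mutant-labelled and 141 FPKM in sibling-labelled eyes (-0.71). *ddit3*, its pro-apoptotic factor, was at 22.9 FPKM in mutant-labelled eyes and 12.1 FPKM in sibling-labelled eyes, a difference of 0.87. Heat shock genes had a median of -0.39 across 29 genes, 3 of them at or above 1 (10.3%) and 5 at or below -1 (17.2%). *hsp90aa1.2* had 22.0 FPKM in mutant-labelled and 83.2 FPKM in sibling-labelled eyes (-1.87). *hsp90aa1.1* had 3.55 FPKM in mutant-labelled and 0.567 FPKM in sibling-labelled eyes (1.54). Immediate early genes had a median of -0.27 across 29 genes. Of these, 2 were at or below -1 (6.9%, against 9.02% of all genes) and 1 at or above 1 (3.4%, against 3.65%). The lowest was *egr1*, which neurons switch on with activity, with 6.87 FPKM in mutant-labelled and 26.1 FPKM in sibling-labelled eyes (-1.78). The highest was *ier5l*, at 1.0. Hypoxia genes had a median of -0.30 across 28 genes, with *ndrg1a*, a gene that low oxygen induces, at 55.8 FPKM in mutant-labelled and 232 FPKM in sibling-labelled eyes (-2.03). *vegfaa*, a growth factor gene of vessels, had 2.67 FPKM in mutant-labelled and 1.83 FPKM in sibling-labelled eyes (0.38).

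Most transcription factor families and chromatin genes had small median shifts. Medians were 0.24 for Sox genes (22), 0.11 for Fox genes (40), 0.27 for Pax genes (9), -0.03 for Iroquois genes (11) and 0.13 for *znf* zinc finger genes (108). None of the Sox, Fox, Pax or Iroquois genes was at or below -1, against 9.02% of all genes. At or above 1 were 4 Sox genes (18.2%), 7 Fox genes (17.5%), 2 Pax genes (22.2%) and no Iroquois gene, against 3.65% of all genes. *sox12* was at 159 FPKM in mutant-labelled eyes and 65.1 FPKM in sibling-labelled eyes, a difference of 1.27. *pax6a*, a regulator of eye development, had 228 FPKM in mutant-labelled and 199.8 FPKM in sibling-labelled eyes (0.19). *pax2a*, of the optic stalk, was at 3.24 FPKM in mutant-labelled eyes and 2.44 FPKM in sibling-labelled eyes, a difference of 0.30. Of 48 Hox genes listed, 46 were matched to 1 row each and 4 reached 1 FPKM, all in mutant-labelled eyes only. Among them *hoxa2b*, a hindbrain and neural crest gene, had 2.12 FPKM in mutant-labelled and 0.210 FPKM in sibling-labelled eyes (1.37). Histone modifiers and remodellers had a median of 0.13 across 81 genes. *kdm6bb*, a demethylase of histone H3, had 12.7 FPKM in mutant-labelled and 45.6 FPKM in sibling-labelled eyes (-1.76). *hdac9b*, a histone deacetylase gene, was at 1.88 FPKM in mutant-labelled eyes and 12.8 FPKM in sibling-labelled eyes, a difference of -2.26. *hdac1*, another deacetylase gene, had 224 FPKM in mutant-labelled and 157 FPKM in sibling-labelled eyes (0.51). *ezh2*, a methyltransferase gene, was at 17.9 FPKM in mutant-labelled eyes and 12 FPKM in sibling-labelled eyes, a difference of 0.54. Among genes of DNA methylation (37 with base excision repair, median 0.20), the maintenance enzyme *dnmt1* had 30.5 FPKM in mutant-labelled and 17.8 FPKM in sibling-labelled eyes (0.75). *dnmt3ab*, a de novo enzyme, was at 5.88 FPKM in mutant-labelled eyes and 11.7 FPKM in sibling-labelled eyes, a difference of -0.88.

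Most gene pairs matched by symbol had differences close to each other, and a minority lay far apart. Zebrafish carry many gene pairs left by an ancient genome duplication in fishes. By symbol, 1727 pairs of kept genes differed in a final a or b alone. This set was drawn up after values had been seen. Its pairs are called copies below, but the match takes in genes such as *aurka* and *aurkb* that are not copies of that duplication. How many such pairs there are was not counted. The difference of one copy from sibling-labelled eyes was within 1 of that of the other in most pairs. Of all genes, 87.3% lay within 1 of 0, so many unrelated genes lie close to each other as well. Pairs of unrelated genes were not compared, and the closeness is not shown to be particular to copies. The median gap between the copies was 0.43, and it reached 1 in 301 pairs (17.4%), 2 in 58 and 3 in 12. Both copies were at or below -1 in 101 pairs and only one of them in 281, both were at or above 1 in 17 and only one in 87, and in 5 pairs one copy was at or above 1 and the other at or below -1. Across pairs, which share both libraries and are not independent, Pearson's r was 0.47 and Spearman's rho 0.44, given as a description.

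Of 58 pairs with a gap of at least 2, the lower copy was at or below -1 in 55, and in 43 of these the other copy lay within 1 of 0, as did 87.3% of all genes. Over all 58 pairs, the lower copy was the more abundant of the pair in sibling-labelled eyes in 45 and in mutant-labelled eyes in 16. Pairs and lower copies were picked from these same FPKM values, so this contrast is in large part built in. The widest was the transducin beta pair *gnb3a* and *gnb3b*. *gnb3a*, on chromosome 16 from 12131641 to 12158860, had an FPKM of 301 in mutant-labelled and 297 in sibling-labelled eyes (0.02), while *gnb3b*, on chromosome 19 from 5189740 to 5235125, had an FPKM of 20.9 in mutant-labelled and 858 in sibling-labelled eyes (-5.29). The phosphate carrier *slc25a3a*, on chromosome 4 from 16855997 to 16864488, has been given above, and its copy *slc25a3b*, on chromosome 25 from 3180945 to 3195621, had an FPKM of 256 in mutant-labelled and 210.5 in sibling-labelled eyes (0.28). Other pairs with a gap code for proteins of general function. *mdh1aa*, a malate dehydrogenase gene, had 210.0 FPKM in mutant-labelled and 211 FPKM in sibling-labelled eyes (-0.01). *mdh1ab* was at 14.2 FPKM in mutant-labelled eyes and 82 FPKM in sibling-labelled eyes, a difference of -2.44. *guk1a*, a guanylate kinase gene, had 40.3 FPKM in mutant-labelled and 34.7 FPKM in sibling-labelled eyes (0.21). *guk1b* was at 19.5 FPKM in mutant-labelled eyes and 146 FPKM in sibling-labelled eyes, a difference of -2.84. In both pairs copy a was level and copy b lower. *impdh1a*, of guanine nucleotide synthesis, had 7.0 FPKM in mutant-labelled and 36.4 FPKM in sibling-labelled eyes (-2.23). *impdh1b* was at 148 FPKM in mutant-labelled eyes and 94.7 FPKM in sibling-labelled eyes, a difference of 0.64. *elovl4a*, a fatty acid elongase gene, had 48.2 FPKM in mutant-labelled and 43.7 FPKM in sibling-labelled eyes (0.14). *elovl4b* was at 113 FPKM in mutant-labelled eyes and 398 FPKM in sibling-labelled eyes, a difference of -1.80. In the first of these pairs copy a was the lower one, and in the second copy b. In *cdc14aa* and *cdc14ab*, phosphatase genes, the copies went opposite ways. *cdc14aa* had 0.614 FPKM in mutant-labelled and 3.64 FPKM in sibling-labelled eyes (-1.52). *cdc14ab* was at 71.6 FPKM in mutant-labelled eyes and 24.5 FPKM in sibling-labelled eyes, a difference of 1.51. The chromatin protein gene *hmga1a* had 2125 FPKM in mutant-labelled and 1187 FPKM in sibling-labelled eyes (0.84). *hmga1b* was at 33.9 FPKM in mutant-labelled eyes and 155 FPKM in sibling-labelled eyes, a difference of -2.16.

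**Figure D5:**
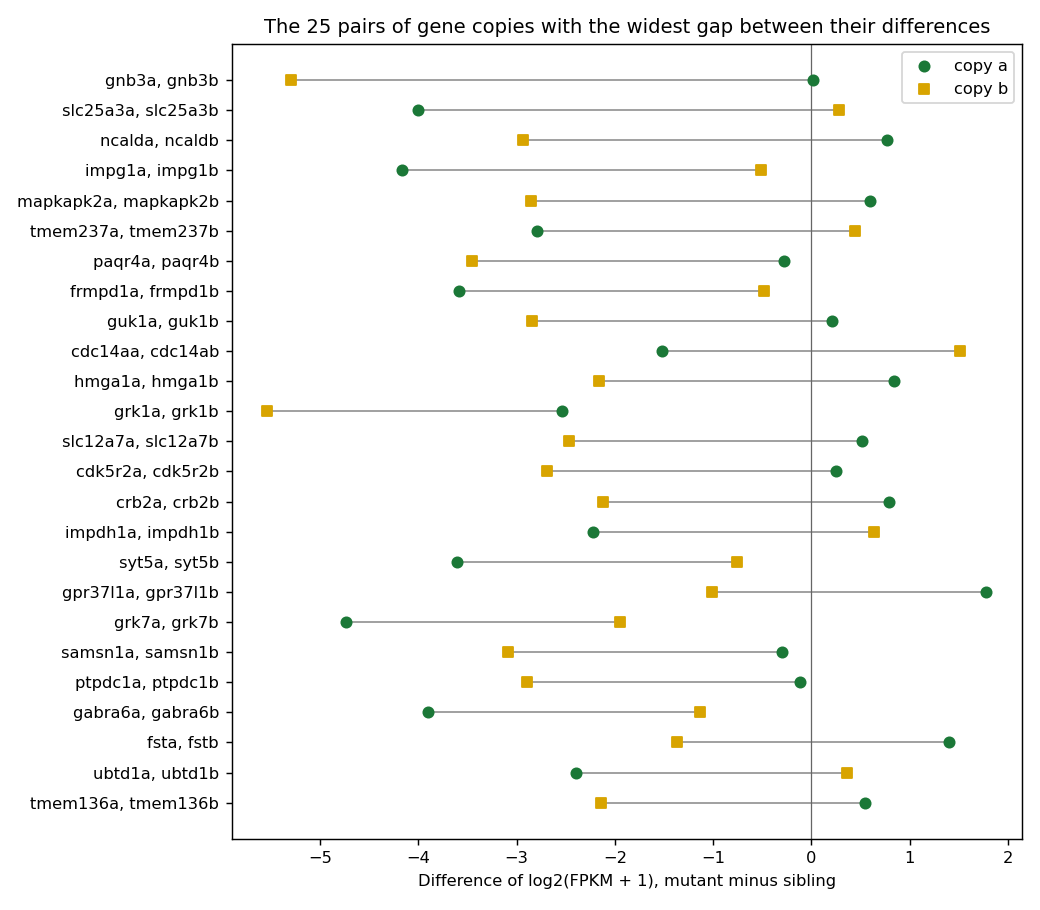
Difference of log2(FPKM + 1), mutant minus sibling, for copies a (circles) and b (squares) of 25 gene pairs. The pairs were matched by symbol alone and are those with the widest gap, widest at the top. In most of them one copy lies near 0 and the other at or below -2, as for *gnb3a* (0.02) and *gnb3b* (-5.29).

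Some genes outside all lists are named here by size and for a known function, chosen after their values were seen. *pdcb*, a phosducin gene, had 14.4 FPKM in mutant-labelled and 222 FPKM in sibling-labelled eyes (-3.86). *ckmt2b*, a mitochondrial creatine kinase gene, was at 0.345 FPKM in mutant-labelled eyes and 15.2 FPKM in sibling-labelled eyes, a difference of -3.59. *fscn2a*, an actin bundler of PRs, had 0.904 FPKM in mutant-labelled and 17.5 FPKM in sibling-labelled eyes (-3.28). *dlg4b*, a scaffold gene of the postsynaptic density, was at 2.45 FPKM in mutant-labelled eyes and 30.6 FPKM in sibling-labelled eyes, a difference of -3.19. *neto2b*, an accessory subunit gene of glutamate receptors, had 1.73 FPKM in mutant-labelled and 25.3 FPKM in sibling-labelled eyes (-3.27). All 5 were far lower in mutant-labelled eyes. *aqp4*, a water channel gene of glia, was at -2.78. On the high side, *emilin3a*, a gene of an extracellular matrix glycoprotein, was at 11.8 FPKM in mutant-labelled eyes and 1.0 FPKM in sibling-labelled eyes, a difference of 2.67. *hapln1a*, a link protein of cartilage matrix, had 60.4 FPKM in mutant-labelled and 17.1 FPKM in sibling-labelled eyes (1.76). *rbfox1l*, a splicing regulator of muscle, was at 8.01 FPKM in mutant-labelled eyes and 0.437 FPKM in sibling-labelled eyes, a difference of 2.65. The last of these was below 1 FPKM in sibling-labelled eyes. *myb*, a factor gene of blood progenitors and cycling cells, had 22.0 FPKM in mutant-labelled and 6.65 FPKM in sibling-labelled eyes (1.59). *nes*, the nestin gene of neural progenitors, was at 5.32 FPKM in mutant-labelled eyes and 0.967 FPKM in sibling-labelled eyes, a difference of 1.68.

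Genes around both targeted loci were described as well. Within 5 Mb of *tet2*, 16 of 133 genes (12.03%) were at or above 1 in size, against 67 of 608 (11.0%) on the rest of chromosome 1. Around *tet3* these were 17 of 94 (18.1%), against 110 of 889 (12.4%) on the rest of chromosome 5, and around *tet1*, 12 of 90 (13.3%), against 72 of 557 (12.9%) on the rest of chromosome 13. The medians of the 25 chromosomes lay between -0.04 and 0.20, with chromosome 4 the highest (799 genes).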

How the data were processed

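Poly-A RNA of pooled dissected eyes was made into libraries with an NEB Next kit and sequenced paired-end on an Illumina HiSeq instrument. The authors mapped reads with TopHat to GRCz10 and deposited FPKM per gene and genotype from the Cufflinks package, and FastQC is named in the submitters' processing notes. Tool versions and the annotation release were not given in the sources used here. The deposited table of changed genes, which holds the authors' own comparison, was not used, and neither was the earlier stage, 36hpf.

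Of 31950 genes, 6846 were at 0 in both libraries. Genes reaching 1 FPKM in either library were kept, 1 was added, and the difference of log2 values was taken (Python 3.11.15, pandas 2.3.3, numpy 2.4.6, with plots by matplotlib 3.10.9). FPKM is per length, so levels compare between genes. Depth per library is not stated in the paper or the labels, and no interval was given. Ratios of the lowest values peaked at 1.35 (163 of 821 genes within 5%), so that 1 fragment was worth about that many times more FPKM in the mutant-labelled than in the sibling-labelled library. Gene models overlap in part, and 9905 rows share a locus with another row.

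Genes were matched by symbol to 82 lists, and 553 symbols that stand on more than 1 row (3575 rows) were left out of them. Listed genes that were not kept therefore include such symbols and symbols without a match, besides genes below the minimum. The gene choice and lists were made with earlier results of these data known. The name patterns of 7 lists were corrected after values were seen, to drop genes that share a name but are no members. The named genes were the *tet* genes, those the paper names for the eye, the 15 highest and 15 lowest differences among genes at 5 FPKM or more in one library or both, the highest, lowest and 2 most abundant members of each list, and the 10 most abundant genes of each library. Only a selection of these is printed, some genes are not reported here, and further genes were named after their values were seen. The split by transcription factor, the grouping of genes by list and the gene pairs were also chosen after values were seen. The steps were tested on simulated data, and 11 alternatives were tried.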

Additional observations from a re-analysis of the deposited data

How the results depend on the processing

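Counts of genes depended most on the FPKM added before the log. With 0.1 added, 181 genes were at or above 2, 646 at or below -2 and 1198 at or above 1, and with 5 added, 5 were at or above 2, 99 at or below -2, 238 at or above 1 and 684 at or below -1. A minimum of 1 FPKM in both libraries left 24 genes at or above 2, and leaving out the heart muscle, skeletal muscle and red blood cell lists left 21. All other alternatives kept these counts within 1.5 times, rescaling of the libraries included, under which 24.1% to 27.0% of the genes at 1 or beyond were the higher ones, against 28.8% as reported. The number of lists with a median of 0.5 or more in size was 29 and became 16 with 5 added. The lists of hatching gland and germ line, with 1 and 2 genes kept, turned round with no minimum, where the median of hatching gland was -0.061 and that of germ line 0.015, against 0.90 and -0.63 as reported. With a minimum of 5 FPKM the medians of Pax genes, -0.15 against 0.27, and of brain outside the retina, -0.081 against 0.20, crossed 0, and those of ganglion cells, Iroquois genes and Wnt ligands, near 0 throughout, crossed it under 1 or 2 settings. The median of heart muscle ran between 0.70 and 2.87 and that of skeletal muscle between 0.45 and 2.2. Of 321 named genes, 40 moved by 0.5 or more with 0.1 added and 73 with 5 added. None of those at 1 or beyond in size turned round, and smaller ones were not counted. The FPKM added, the minimum and genes left out cannot change the sign of a gene. Only centring and rescaling could do so, so this count says little about direction. No paired analysis was possible because each genotype has 1 library, for which reason no library could be left out either. Total reads per library were not used, and the counting error of genes near 1 FPKM was not computed.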

Other observations

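Among families of cell contact, matrix and cytoskeleton, laminins and integrins, collagens, metalloproteinases, claudins and tubulins had medians above that of all genes, and cadherins, protocadherins and connexins had medians below it. Laminins and integrins had a median of 0.39 across 35 genes, none of them at 1 or beyond in size. *lamb1a*, a laminin chain of basement membranes, had 17.5 FPKM in mutant-labelled and 8.39 FPKM in sibling-labelled eyes (0.98). *itgb1b*, the common integrin beta chain, had 32.2 FPKM in mutant-labelled and 19.7 FPKM in sibling-labelled eyes (0.68). Collagens had a median of 0.56 (46 genes). The cartilage collagen gene *col9a3* had 63.9 FPKM in mutant-labelled and 24.2 FPKM in sibling-labelled eyes (1.37). *col10a1a*, a collagen of bone and of hypertrophic cartilage, had 0.123 FPKM in mutant-labelled and 3.18 FPKM in sibling-labelled eyes (-1.90). Matrix metalloproteinases spread to both sides (30 genes, median 0.32), *mmp2*, a gelatinase gene, with 49.2 FPKM in mutant-labelled eyes, against 16.5 FPKM in sibling-labelled eyes (1.52). *mmp17b*, a membrane-bound member, had 2.93 FPKM in mutant-labelled eyes, against 10.6 FPKM in sibling-labelled eyes (-1.56). Among claudins and other tight junction genes (27 genes, median 0.24), *cldn5b* had 71.8 FPKM in mutant-labelled and 29.8 FPKM in sibling-labelled eyes (1.24). *cldn2* had 1.84 FPKM in mutant-labelled and 10.9 FPKM in sibling-labelled eyes (-2.07). Tubulin genes, 14 kept, lay between -0.41 and 0.77. Cadherins had a median of -0.66 across 20 genes. The PR cadherin gene *cdhr1a* had 6.39 FPKM in mutant-labelled and 33.1 FPKM in sibling-labelled eyes (-2.21). *cdh2*, the N-cadherin gene of the whole neural retina, had 115 FPKM in mutant-labelled and 104 FPKM in sibling-labelled eyes (0.14). *cdh11*, a cadherin of mesenchyme, had 33.0 FPKM in mutant-labelled and 17.1 FPKM in sibling-labelled eyes (0.91).

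The cholesterol list had a median of -0.12 across 28 genes with 3 at or below -1 (10.7%, against 9.02% of all genes), namely the synthase gene *hmgcs1*, with 9.42 FPKM in mutant-labelled eyes, against 31.5 FPKM in sibling-labelled eyes (-1.64), the reductase gene *hmgcra*, with 1.80 FPKM in mutant-labelled eyes, against 13.2 FPKM in sibling-labelled eyes (-2.35), and the squalene synthase gene *fdft1*, with 2.38 FPKM in mutant-labelled eyes, against 8.26 FPKM in sibling-labelled eyes (-1.46). The squalene epoxidase gene *sqlea*, with 2.74 FPKM in mutant-labelled eyes, against 1.72 FPKM in sibling-labelled eyes (0.46), and the isomerase gene *idi1*, with 25.2 FPKM in mutant-labelled eyes, against 26.9 FPKM in sibling-labelled eyes (-0.09), were closer to 0. Genes of interferon and antigen presentation were few at this level, 9 kept of 32 listed, and lay between -0.26 and 0.50.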
